A study of Mus musculus with 18 samples.

Results

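The genes *Tmem132b*, *Cbfa2t3*, *Tbx2*, *Gm36660* and *Gm48742* were near 0 in vehicle-treated lung cancer cells and were detected after treatment with CYC065. They are 5 of the 55450 genes in the count table, and they had been chosen by their counts, which were known to be higher with CYC065 than with vehicle in at least 1 population. The higher level with CYC065 therefore describes how they were chosen and is not a finding. The values that follow describe how their levels differed between diploid, polyploid and unsorted cells, how their relatives and genomic neighbours behaved, and how many other genes had the same pattern.

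RNA-Seq was done on ED1SQ4, a murine line grown from a lung cancer of a mouse with transgenic cyclin E, so all groups share this 1 line and its transgene. Cells received vehicle or CYC065, an inhibitor of CDK2 and CDK9, at 0.5 μM for 72 h by the study's methods, although a drawing in the study gives a longer time. Each treatment was sequenced as unsorted cells, as a sorted 2N population and as a sorted 4N population, which gave 6 conditions. The study sorted by DNA content and calls these populations diploid and polyploid. A sort by DNA content does not separate polyploid cells from cells that have copied their DNA and not yet divided. The 3 replicates of a condition bear 1 library number, and they were no further apart than sampling noise allows (chi-square per degree of freedom 0.992 to 1.02 over genes with whole counts), so they were summed and counted as 1 sample. No difference between conditions has a replicate check, and no test was made. Ranges in parentheses are 95% intervals that cover counting error only. Summed counts ran from 54750168 to 62795451 per library, and 3 counts corresponded to 0.0450 to 0.0559 CPM, the counts per 1000000 counts of the library after scaling with TMM factors.

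The lung epithelial markers *Nkx2-1* and *Scgb1a1* had 0 counts in all libraries, and the 4 such markers summed to at most 0.0751 CPM. The 5 markers of lung mesenchyme and fibroblasts, led by *Col1a1*, summed to 3150 to 4399 CPM with vehicle and 4648 to 8088 CPM with CYC065, with *Tcf21* at 0. The 6 epithelial markers summed to 0.584 to 0.973 CPM with vehicle and 1.03 to 1.55 CPM with CYC065, and *Epcam* did not exceed 1 count. Blood cell markers summed to 6.16 to 6.88 CPM with vehicle and 16.0 to 28.5 CPM with CYC065, through *Cd68* and *Itga2b*. The defining blood markers *Ptprc*, *Cd3e* and *Adgre1* did not exceed 1 count in any library. The 4 endothelial markers summed to 0.824 to 1.96 CPM and 0.801 to 1.29 CPM, and the 5 neural markers to 0.429 to 0.556 CPM and 0.633 to 1.39 CPM. In bulk RNA, fewer cells of a kind and less RNA per cell cannot be told apart.

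CDK9 phosphorylates RNA polymerase II and releases it from its pause near the start of genes, while CDK2 drives cells through S phase. TMEM132 proteins are single-pass membrane proteins with large extracellular regions, and *Tmem132b* is known mainly from the nervous system. *Cbfa2t3* (also ETO2 or MTG16) encodes a corepressor without a DNA-binding domain of its own, which joins histone deacetylases to transcription factors and is best known in blood progenitors. *Tbx2* encodes a T-box transcription factor that mostly represses its targets, is active in embryonic lung mesenchyme and can restrain genes of cell cycle arrest such as *Cdkn1a* and *Cdkn2a*. *Gm36660* and *Gm48742* are annotated as long intergenic noncoding RNAs (lincRNAs), and no function is stated for them here.

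The 5 genes lie on 5 chromosomes (GRCm38, GENCODE M21). *Tmem132b* spans chr5:125531774-125792583 on the plus strand with 10 exons, *Cbfa2t3* spans chr8:122625141-122699109 on the minus strand with 15 exons, and *Tbx2* spans chr11:85832551-85841948 on the plus strand with 7 exons. *Gm36660* (chr12:80018415-80081434) and *Gm48742* (chr9:41405374-41532087) each have 2 exons on the minus strand. No pair of them shares a locus.

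Promoter windows from 250 bases before to 50 bases after the start, from RefSeq (GRCm38.p6), were matched by symbol for *Tmem132b* and *Cbfa2t3*. They are shown because these genes had almost no reads with vehicle and because the pair of *Cbfa2t3* starts differ in composition. Each is written 5′ to 3′ on the strand of the gene, and capitals mark the GC box GGGCGG on either strand and the E-box CAGCTG. The first window, at chr5:125532168-125532467, belongs to a *Tmem132b* start inside the GENCODE span, the second, at chr8:122699060-122699359, to the outer *Cbfa2t3* start, and the third, at chr8:122678126-122678425, to an inner *Cbfa2t3* start.
Tmem132b: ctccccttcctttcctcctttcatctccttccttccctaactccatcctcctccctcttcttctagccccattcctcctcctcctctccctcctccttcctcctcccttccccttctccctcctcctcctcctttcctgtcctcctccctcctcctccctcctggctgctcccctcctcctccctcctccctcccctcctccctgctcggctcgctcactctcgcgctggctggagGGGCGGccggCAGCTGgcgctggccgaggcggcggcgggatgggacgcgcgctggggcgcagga
Cbfa2t3 outer start: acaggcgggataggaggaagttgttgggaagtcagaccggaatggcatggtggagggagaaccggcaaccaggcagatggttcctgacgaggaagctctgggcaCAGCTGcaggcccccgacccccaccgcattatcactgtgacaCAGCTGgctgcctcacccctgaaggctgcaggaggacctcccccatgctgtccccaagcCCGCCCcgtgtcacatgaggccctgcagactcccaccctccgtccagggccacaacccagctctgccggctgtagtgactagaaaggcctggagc
Cbfa2t3 inner start: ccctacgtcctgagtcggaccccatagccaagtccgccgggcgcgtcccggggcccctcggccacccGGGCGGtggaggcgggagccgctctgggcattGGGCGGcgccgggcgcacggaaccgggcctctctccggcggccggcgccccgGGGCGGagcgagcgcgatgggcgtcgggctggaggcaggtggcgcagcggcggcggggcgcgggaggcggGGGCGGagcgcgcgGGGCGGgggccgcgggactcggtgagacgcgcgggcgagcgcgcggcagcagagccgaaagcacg

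The *Tmem132b* window was 78.0% C or T on the coding strand, and 0.0396% of the 32851 windows of the table were as rich in C and T. It held 15 CpG dinucleotides, 1 GC box and 1 CAGCTG. The outer *Cbfa2t3* window held 10 CpG, 1 GC box and 2 CAGCTG. The inner one held 53 CpG, a number that 0.451% of windows reached, with 81.7% G or C and 5 GC boxes. A GC box occurred in 35.7% of all windows and CAGCTG in 16.3%. On both strands, 4 further motifs had no match in the 3 windows. They were the TATA box TATAAA (in 13.6% of all windows), the E-box CACGTG (7.15%), the AP-1 site TGACTCA (5.20%) and the T-box half-site AGGTGTGA (1.28%). CCAAT, found in 37.4% of windows, had 1 match in the inner *Cbfa2t3* window, where it overlapped a GC box. The counts are per gene and do not say which start was used, and the motifs were picked once the genes were known.

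The first exon of *Gm48742* runs antisense to the hairpin of microRNA 100 (*Mir100*), and this stretch is shown because reads there could belong to either strand's gene. The hairpin, chr9:41531425-41531504 on the plus strand, is the reverse complement of bases 584 to 663 of the 2184 bases of *Gm48742*. Capitals mark the complement of mature miR-100-5p in the first line and the seed (bases 2 to 8) in the second.
Gm48742 stretch: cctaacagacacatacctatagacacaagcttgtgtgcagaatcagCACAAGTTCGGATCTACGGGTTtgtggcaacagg
mmu-miR-100-5p: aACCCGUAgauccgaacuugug
*Gm36660* begins with the next 120 bases at chr12:80081315-80081434, given here to identify a transcript that has no name beyond its number.
Gm36660: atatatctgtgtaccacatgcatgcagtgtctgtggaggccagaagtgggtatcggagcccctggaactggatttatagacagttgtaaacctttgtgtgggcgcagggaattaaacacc

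*Tmem132b* was close to off with vehicle and at a low level with CYC065 in all populations, near the middle of the genes with any count. With vehicle it had 7 counts in unsorted, 1 in 2N and 2 in 4N cells. With CYC065 it had 311 counts (5.79 CPM) in unsorted, 255 (4.49 CPM) in 2N and 386 (5.79 CPM) in 4N cells. The treatments did not overlap, and the lowest CYC065 library lay 37.4-fold above the highest vehicle library. The ratio of CYC065 to vehicle was 48.2 (23.1 to 121) in unsorted cells, 258 (46.0 to 10230) in 2N and 175 (48.1 to 1448) in 4N cells, and the wide intervals reflect the 1 to 7 counts with vehicle. None of its 50-mers occurs in another gene. Per kilobase of exon, the CPM of *Tmem132b* with CYC065 was 0.703 in unsorted, 0.545 in 2N and 0.703 in 4N cells. These values lay between the percentiles 47.8 and 50.1 of detected genes, which are all genes with any count in that library.

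No other gene of its family had this pattern. The paralog *Tmem132a*, a membrane protein of the endoplasmic reticulum and cell surface, had 2375 to 3522 counts in the 6 libraries, and its log2 ratio of CYC065 to vehicle was 0.25 (0.17 to 0.32) in unsorted, -0.55 (-0.63 to -0.47) in 2N and -0.30 (-0.37 to -0.23) in 4N cells. *Tmem132c*, *Tmem132d* and *Tmem132e* did not exceed 4 counts in any library. Of the 6 genes nearest to *Tmem132b*, only *Aacs* and *Gm43756* had over 10 counts. *Aacs*, an acetoacetyl-CoA synthetase gene that ends 14.4 kb upstream on the same strand, had log2 ratios of -0.01 (-0.06 to 0.03) in unsorted, 0.13 (0.07 to 0.18) in 2N and 0.16 (0.11 to 0.22) in 4N cells. *Gm43756*, an unconfirmed transcript on the same strand 57.4 kb away, had 8 counts in unsorted, 1 in 2N and 0 in 4N cells with vehicle. With CYC065 it had 22, 22 and 42 counts in the same order, so a second low transcript of the locus was higher while the gene between them was level.

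*Cbfa2t3* had its highest level in unsorted CYC065-treated cells and a far lower one in both sorted populations. With vehicle it had 0 counts in unsorted, 6 in 2N and 4 in 4N cells. With CYC065 it had 280 counts (5.22 CPM) in unsorted, 66 (1.16 CPM) in 2N and 23 (0.345 CPM) in 4N cells. The treatments did not overlap, but the gap narrowed to 3.31-fold between CYC065 4N and vehicle 2N cells. In unsorted cells the CYC065 level was 101-fold that of vehicle as a bound against a floor of 3 counts, with a 95% lower limit of 81.9. The ratio was 11.1 (4.86 to 31.5) in 2N and 5.21 (1.78 to 20.7) in 4N cells. Its columns of reads were alike in the unsorted library, with 94, 90 and 96 counts.

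Of its corepressor family, *Cbfa2t2* (MTGR1) was the abundant member, with 4025 to 5992 counts and log2 ratios of CYC065 to vehicle of 0.45 (0.39 to 0.51) in unsorted, 0.30 (0.24 to 0.36) in 2N and 0.43 (0.37 to 0.49) in 4N cells. *Runx1t1* (ETO), the third member, was low with vehicle, at 10 counts in unsorted, 18 in 2N and 9 in 4N cells. With CYC065 *Runx1t1* had 71, 92 and 65 counts in the same order, with log2 ratios of 2.95 (1.98 to 4.07), 2.37 (1.63 to 3.19) and 2.71 (1.70 to 3.90). Unlike *Cbfa2t3*, it was not highest in unsorted cells.

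The partners of these corepressors were mostly level, while of all genes 12.6% in unsorted, 16.2% in 2N and 15.5% in 4N cells were past 2-fold higher with CYC065. In the same order, 12.6%, 11.4% and 10.1% of all genes were past 2-fold lower. Of 21 listed partners, which include histone deacetylases, nuclear corepressors and the factors that recruit them, 13 had at least 30 counts in a library compared, and 0 were past 2-fold higher or lower with CYC065 in any population. Their median log2 ratios were 0.03 in unsorted, 0.11 in 2N and -0.12 in 4N cells, beside medians of -0.01, 0.01 and 0.03 over all genes. *Ncor1*, among the most abundant of them, had ratios of 0.44 (0.41 to 0.47), 0.31 (0.28 to 0.34) and 0.47 (0.44 to 0.50). *Hdac2* had -0.56 (-0.63 to -0.49), -0.26 (-0.32 to -0.20) and -0.42 (-0.48 to -0.37). The blood partners *Tal1*, *Lmo2*, *Gata1* and *Gfi1b* did not exceed 4 counts.

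Around *Cbfa2t3*, only *Trappc2l* of the 6 nearest genes had over 10 counts. *Trappc2l*, a vesicle tethering gene on the opposite strand 8.48 kb away, was lower with CYC065, by log2 ratios of -0.62 (-0.86 to -0.38) in unsorted, -1.10 (-1.34 to -0.87) in 2N and -1.22 (-1.43 to -1.01) in 4N cells. *Gm10612*, which overlaps 295 exon bases of *Cbfa2t3* on the opposite strand and holds the 2.92% of its 50-mers that occur elsewhere, had 0 counts in all libraries.

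*Tbx2* was low in all libraries and did not start from 0. With vehicle it had 4 counts in unsorted, 6 in 2N and 13 in 4N cells. With CYC065 it had 49 counts (0.913 CPM) in unsorted, 66 (1.16 CPM) in 2N and 49 (0.736 CPM) in 4N cells. The treatments did not overlap, and the smallest gap, within 4N cells, was 3.42-fold. The ratios of CYC065 to vehicle were 13.3 (4.87 to 50.7) in unsorted, 11.1 (4.86 to 31.5) in 2N and 3.42 (1.83 to 6.86) in 4N cells. The interval for 4N reached below 2-fold, and its vehicle library held the most *Tbx2* counts of that treatment.

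In the T-box family of 17 genes, 7 in unsorted, 5 in 2N and 7 in 4N cells passed the filter of 30 counts. Of these, 4, 2 and 2 were past 2-fold higher with CYC065, *Tbx2* among them each time, and 0 were past 2-fold lower. The share of all genes past 2-fold higher was 12.6% in unsorted, 16.2% in 2N and 15.5% in 4N cells. The share past 2-fold lower was 12.6%, 11.4% and 10.1%. *Tbx2* was chosen for being higher, so its place in these counts says nothing about the family. *Tbx3*, the closest relative of *Tbx2* and another repressor, was the abundant member at 4550 to 6268 counts, with log2 ratios of 0.24 (0.18 to 0.30), -0.08 (-0.13 to -0.02) and 0.16 (0.11 to 0.22). *Tbx19*, known from pituitary hormone cells, had 0 counts in all vehicle libraries. Its counts with CYC065 were 29 in unsorted, 29 in 2N and 69 in 4N cells. The level of *Tbx19* in 4N cells was 20.8-fold the floor used in place of 0 counts. This value leaves out the counting error of the 69 counts themselves, so the ratio could be lower. *Tbx18*, a mesenchymal T-box gene, had 23 counts in unsorted, 64 in 2N and 173 in 4N cells with vehicle, and 46, 223 and 209 with CYC065, so its range over the populations of vehicle-treated cells was wide. *Tbx4*, the lung mesenchyme gene 44.5 kb downstream of *Tbx2* on the same strand, did not exceed 5 counts.

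Of 8 genes listed as TBX2 targets, 5 passed the filter in each population. Of these, 1 in unsorted, 3 in 2N and 3 in 4N cells were past 2-fold higher with CYC065. In the same order, 1, 0 and 0 were past 2-fold lower. Over all genes, 12.6%, 16.2% and 15.5% were past 2-fold higher and 12.6%, 11.4% and 10.1% lower. The median log2 ratios of those that passed the filter were 0.43, 1.30 and 1.17, beside -0.01, 0.01 and 0.03 over all genes. *Cdkn2a*, which encodes p16 and p19ARF, was higher with CYC065 by log2 ratios of 1.17 (1.13 to 1.21) in unsorted, 1.30 (1.25 to 1.34) in 2N and 1.17 (1.13 to 1.22) in 4N cells. *Cdkn1b* (p27) had 0.93 (0.87 to 0.99), 1.67 (1.59 to 1.75) and 1.46 (1.39 to 1.53). *Ndrg1* had 0.43 (0.39 to 0.47), 1.54 (1.49 to 1.59) and 1.60 (1.56 to 1.65). *Cdkn1a* (p21) was lower, by -1.17 (-1.32 to -1.03) in unsorted, -0.28 (-0.39 to -0.17) in 2N and -0.58 (-0.70 to -0.46) in 4N cells. *Cdh1*, *Frzb* and *Shisa3* did not exceed 15 counts.

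*Bcas3*, a cytoskeletal gene that ends 6.49 kb upstream of *Tbx2* on the same strand, was higher with CYC065 in all populations. It had 834 counts in unsorted, 617 in 2N and 763 in 4N cells with vehicle and 1805, 1686 and 2102 with CYC065, or log2 ratios of 1.23 (1.11 to 1.35), 1.47 (1.34 to 1.60) and 1.32 (1.20 to 1.44). The divergent transcript *2610027K06Rik*, which starts 328 bases from *Tbx2* on the opposite strand, did not exceed 2 counts. Whether reads past the end of *Bcas3* add to *Tbx2* was not tested.

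*Gm36660* reached the highest level per kilobase of the 5 genes, and it did so in 4N cells. With vehicle it had 1 count in unsorted, 5 in 2N and 4 in 4N cells. With CYC065 it had 238 counts (4.43 CPM) in unsorted, 371 (6.53 CPM) in 2N and 905 (13.6 CPM) in 4N cells. The lowest CYC065 library lay 51.0-fold above the highest vehicle library, the widest gap of the 5 genes. On the log2 scale this gap was 5.67 (4.43 to 7.31), and its interval overlapped that of *Tmem132b*, 5.22 (4.16 to 6.55). The ratios of CYC065 to vehicle were 258 (45.9 to 10230) in unsorted, 75.2 (31.9 to 233) in 2N and 205 (79.8 to 754) in 4N cells. Per kilobase of exon it reached 3.51 in 4N cells, percentile 65.1 of the genes with any count in that library. Of its 50-mers, 0.209% occur in other genes.

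The neighbour of *Gm36660* with the most reads was also higher with CYC065. *Zfp36l1*, which encodes a protein that promotes decay of AU-rich mRNAs and ends 26.3 kb upstream of *Gm36660* on the same strand, had 5294 counts in unsorted, 5091 in 2N and 5442 in 4N cells with vehicle. With CYC065 *Zfp36l1* had 16518, 16970 and 15309 counts, or log2 ratios of 1.76 (1.72 to 1.81), 1.76 (1.71 to 1.80) and 1.35 (1.31 to 1.40). It was lowest in 4N cells among the CYC065 libraries, where *Gm36660* was highest. *Zfp36l1* shares 54.4% of its 50-mers with *Gm26669* and a pseudogene, so its counts are uncertain, although *Gm26669* did not exceed 8 counts. Whether reads that run on past *Zfp36l1* reach *Gm36660* was not tested, and *Gm47752*, which lies between them on the other strand, had 0 counts.

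*Gm48742* was the lowest in unsorted cells and the highest in 2N cells. With vehicle it had 0 counts in unsorted, 0 in 2N and 3 in 4N cells. With CYC065 it had 12 counts (0.224 CPM) in unsorted, 149 (2.62 CPM) in 2N and 39 (0.585 CPM) in 4N cells. As bounds against 3 counts, the CYC065 level was 4.34-fold that of vehicle in unsorted and 50.3-fold in 2N cells. The 95% lower limits were 3.015 and 40.42. The ratio in 4N cells was 11.8 (3.75 to 59.6). The bound for unsorted cells fell to 1.12 on the log2 scale without replicate 3, partly because the floor of 3 counts then stands against fewer reads.

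*Gm48742* lies antisense to *3110039I08Rik*, the long host transcript of *Mir100*, with which it shares 81 exon bases. *3110039I08Rik* had 4895 counts in unsorted, 2902 in 2N and 2681 in 4N cells with vehicle and 3998, 3702 and 4325 with CYC065, so its log2 ratios of -0.17 (-0.23 to -0.11), 0.37 (0.30 to 0.44) and 0.55 (0.48 to 0.62) stayed within 2-fold. *Mir100* itself had 0 counts in this table, whose libraries were not made for small RNAs. The library kit keeps strand, but the strand setting of the count step is not given in the sources used here. Between them, *3110039I08Rik* and *Mir100* hold 3.00% of the 50-mers of *Gm48742*. *Mirlet7a-2*, 4.63 kb away, had 0 counts.

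**Figure D1:**
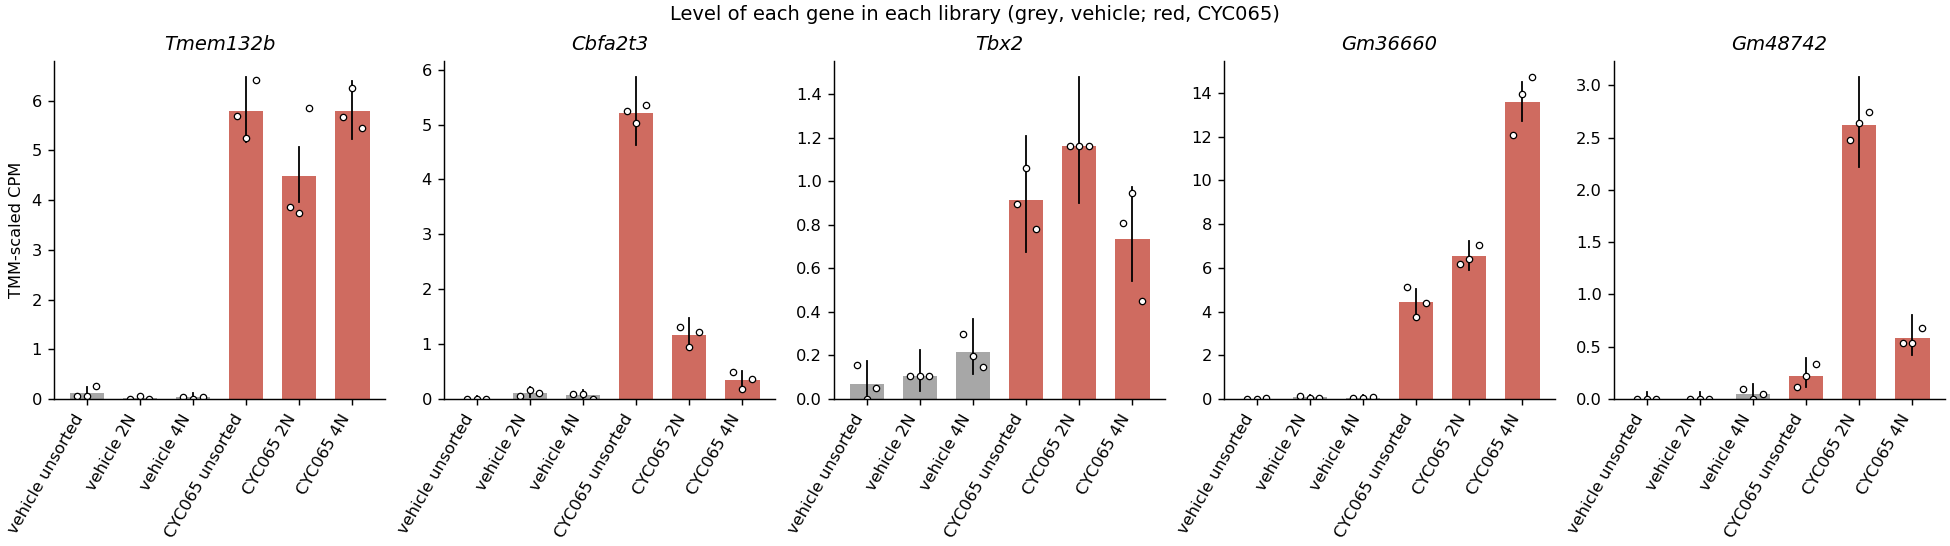
Level of each gene in the 6 libraries, in TMM-scaled CPM on a linear axis from 0 with its own range for each gene. Bars are the summed library, black lines the exact 95% counting interval and open circles the 3 columns of reads of that library. *Gm36660* is highest in CYC065 4N cells at 13.6, *Gm48742* in CYC065 2N cells at 2.62 and *Cbfa2t3* in CYC065 unsorted cells at 5.22.

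Side by side, the description that chose these genes is plain. With CYC065, 4 of the 5 in unsorted, 5 in 2N and 4 in 4N cells passed the filter, and all of these were past 2-fold higher than vehicle, as were 12.6%, 16.2% and 15.5% of all genes. The genes below the filter were *Gm48742* in unsorted cells and *Cbfa2t3* in 4N cells. In all genes tested, 29.7% had their lowest CYC065 library above their highest vehicle library and 5.12% had it over 2-fold above, as all 5 did. Since the contrast chose the genes, nothing follows from that count.

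**Figure D2:**
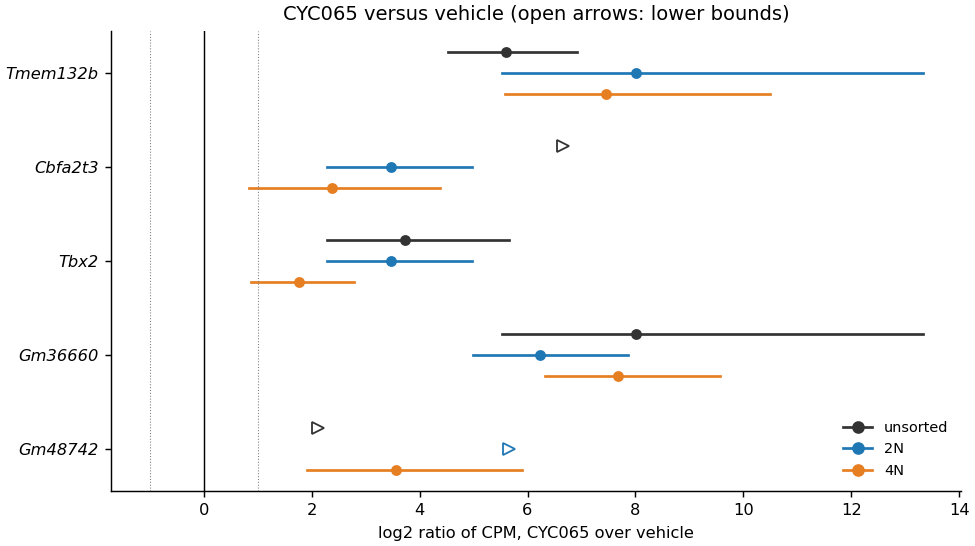
The log2 ratio of CYC065 to vehicle for each gene, in unsorted (black), 2N (blue) and 4N (orange) cells. Points are ratios with exact 95% counting intervals, open arrows are lower bounds against 3 counts, and dotted lines mark 2-fold. *Cbfa2t3* and *Tbx2* in 4N cells sit lowest among the points, at 2.38 and 1.77.

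The sorted populations set the 5 genes apart from each other. Within CYC065-treated cells, *Gm36660* was 2.08-fold higher in 4N than in 2N cells (1.84 to 2.35). *Gm48742* was 4.48-fold lower in 4N than in 2N cells (3.13 to 6.55), and *Cbfa2t3* was 3.37-fold lower (2.07 to 5.67). *Tbx2* had a log2 ratio of 4N to 2N of -0.66 (-1.22 to -0.10) and *Tmem132b* of 0.37 (0.14 to 0.60), both within 2-fold. Over all genes, 1.48% were past 2-fold higher and 2.08% past 2-fold lower in 4N than in 2N cells, and of the 5 genes 1 was higher and 2 were lower. Some of these genes were first noticed for their change in 1 population, so this count is not independent of their choice.

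The size of the *Tmem132b* difference varied with the columns of reads. Its 2N library had 73, 71 and 111 counts in the 3 columns, while 4N had 126, 139 and 121. The 2N columns were more uneven than counting alone usually gives (chi-square 11.9 on 2 degrees of freedom). This value is the largest in any library of the 5 genes, so it was singled out among many. The log2 ratio was 0.64 without replicate 3 and 0.28 and 0.19 without replicates 1 and 2. With vehicle, the 5 genes had too few counts for the same comparison: *Tmem132b* and *Gm48742* were at or under 3 counts in both populations. The log2 intervals of the others, -2.92 to 1.42 for *Cbfa2t3*, -0.45 to 2.73 for *Tbx2* and -2.72 to 1.83 for *Gm36660*, all included 0.

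Unsorted cells did not always lie between the sorted populations. *Cbfa2t3* in unsorted CYC065-treated cells was 4.49-fold above 2N (3.42 to 5.96) and 15.1-fold above 4N (9.87 to 24.2). *Gm48742* was 11.7-fold below 2N (6.52 to 23.2) and 2.62-fold below 4N (1.34 to 5.50). *Gm36660* was 1.47-fold below 2N (1.25 to 1.74) and 3.06-fold below 4N (2.65 to 3.55). Levels of *Tbx2* in unsorted cells fell between the sorted ones, with intervals that included 0 against both (-0.91 to 0.21 and -0.29 to 0.91 on the log2 scale). *Tmem132b* stood at 5.79 CPM in unsorted and in 4N cells (log2 interval -0.22 to 0.22).

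Over all genes, 2.12% of 14395 were past 2-fold above both sorted populations in CYC065-treated cells, as *Cbfa2t3* was, and 2.16% were past 2-fold below both, as *Gm48742* was. In vehicle-treated cells the shares were 5.47% and 2.31% of 13812. Past 2-fold, unsorted cells were higher than 2N cells for 3.2% and lower for 3.58% of genes, or 452 and 506 genes. Scaled by library size alone, these were 309 and 703 genes. Against 4N cells they were higher for 4.82% and lower for 4.06%, or 686 and 577 genes, and 441 and 948 by library size alone. Unsorted cells include any that fall outside the 2N and 4N sorts, so their levels need not lie between the sorted ones. The cells a population holds, the sort, the handling of the cells and the library cannot be told apart, since each population is 1 library.

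**Figure D3:**
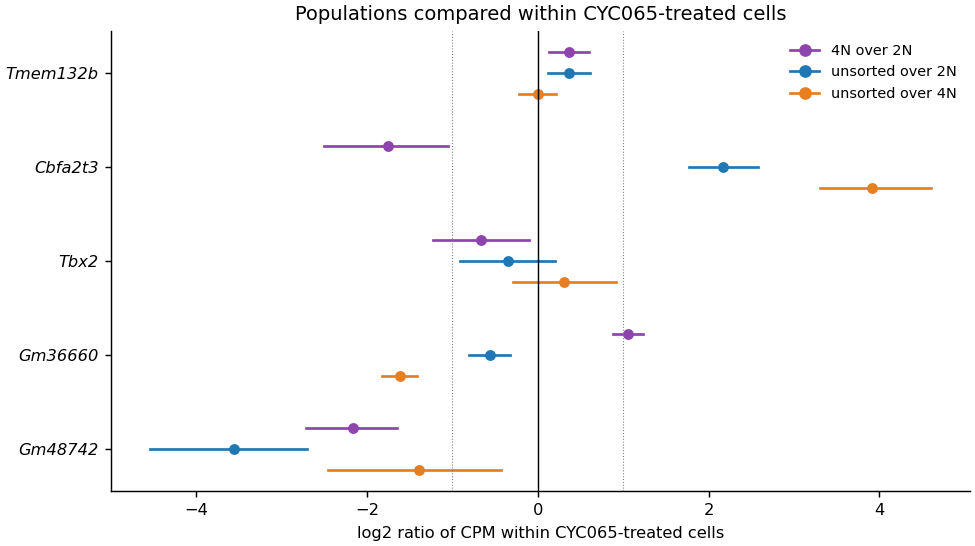
The log2 ratios between populations of CYC065-treated cells for each gene: 4N over 2N (purple), unsorted over 2N (blue) and unsorted over 4N (orange), with exact 95% counting intervals and dotted lines at 2-fold. *Cbfa2t3* lies to the right for unsorted cells at 2.17 and 3.92, *Gm48742* to the left at -3.55 and -1.39, and *Tmem132b* near 0.

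The order of the levels thus differed by gene. For *Cbfa2t3* the CYC065 libraries ran unsorted, 2N, 4N, and for *Gm48742* 2N, 4N, unsorted, with each step beyond counting error. For *Gm36660* they ran 4N, 2N, unsorted, also with each step beyond counting error. For *Tbx2* the neighbours in the order 2N, unsorted, 4N did not differ beyond it. For *Tmem132b* only the step to 2N did. Among the vehicle libraries, no step with a log2 interval excluded 0 for any of the 5 genes. On profiles of log2 level centred within each gene, *Tmem132b* and *Gm36660* were the closest pair, at a root mean square distance of 1.36. *Cbfa2t3* and *Tmem132b* were the farthest, at 2.32. These distances include the vehicle libraries, where the 5 genes had 0 to 13 counts, and no prior count other than 0.5 was tried.

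**Figure D4:**
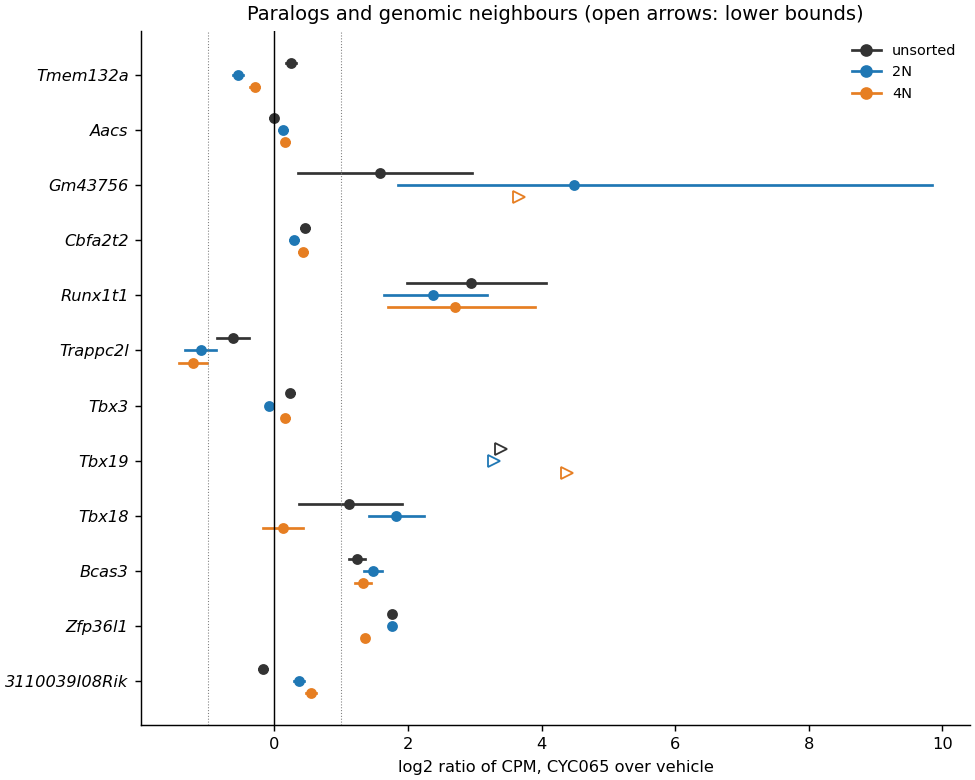
The log2 ratio of CYC065 to vehicle in paralogs and genomic neighbours of the 5 genes, in unsorted (black), 2N (blue) and 4N (orange) cells, with exact 95% counting intervals, lower bounds as open arrows and dotted lines at 2-fold. *Tmem132a*, *Aacs*, *Cbfa2t2*, *Tbx3* and *3110039I08Rik* sit within 2-fold, and *Bcas3* and *Zfp36l1* beyond it in all populations. The arrows of *Tbx19* stand at 9.79-fold or more over the floor used in place of 0 counts in each population. They leave out the counting error of its level with CYC065, so the ratios could be lower.

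Few genes went from off to on by a strict rule, and the 5 genes were not among them. In all, 16 genes had at most 3 counts in each vehicle library and at least 30 in each CYC065 library, and 0 genes had the reverse. *Tmem132b*, *Gm36660* and *Tbx2* missed through up to 7, 5 and 13 counts in a vehicle library. *Cbfa2t3* missed on both sides, with up to 6 counts in a vehicle library and 23 in a CYC065 library. *Gm48742* missed through its 12 counts in a CYC065 library. With up to 10 counts allowed in vehicle libraries, 76 genes met the rule, with *Tmem132b* and *Gm36660* among them, and 3 genes met its reverse. With at least 100 counts in each CYC065 library as well, 5 genes remained: *Ccdc106*, *Gm20431*, *Gm36660*, *Iqcn* and *Tmem132b*. Of these, *Ccdc106* shares 56.8% and *Gm20431* 98.1% of its 50-mers with other genes.

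**Figure D5:**
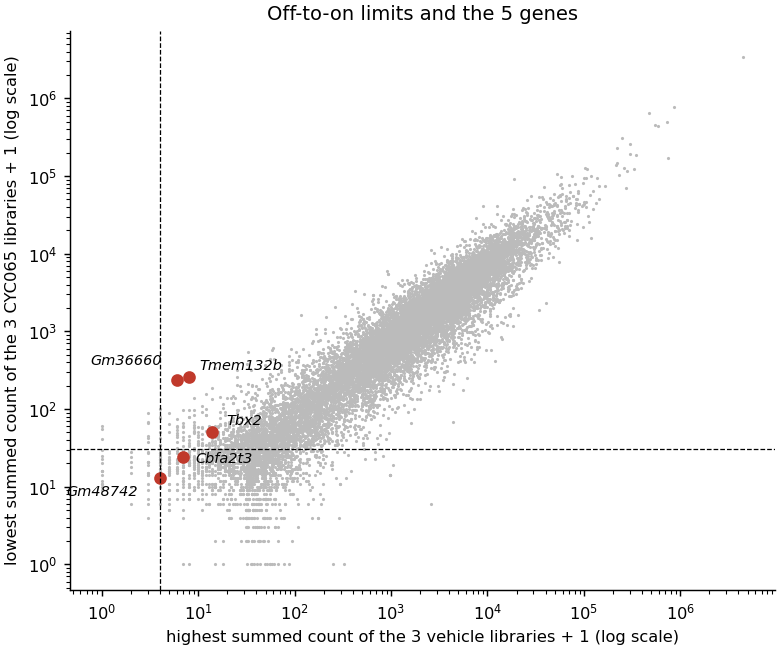
Each gene with at least 30 counts in a library, by its highest vehicle count (x) and its lowest CYC065 count (y), both plus 1 on log axes. Dashed lines mark 3 and 30 counts, and the off-to-on genes fill the upper left corner. *Gm36660* (5 and 238) and *Tmem132b* (7 and 255) lie far above the other genes of their vehicle level, while *Tbx2*, *Cbfa2t3* and *Gm48742* lie nearer to them.

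The genes most like each of the 5 over the 6 libraries were found by the same distance among 14762 genes, as a description. For *Tmem132b* they were the lincRNA *4933427D06Rik* (0.404), *Ccdc106* (0.446) and *Baiap3* (0.590), and 23 genes lay within 1. *Baiap3*, a gene of vesicle release, had at most 2 counts with vehicle and 99 counts in unsorted, 88 in 2N and 161 in 4N cells with CYC065. For *Cbfa2t3* only the guanylate-binding gene *Gbp8* lay within 1 (0.728), followed by *Trp63* (1.01) and *Aspn* (1.01). *Aspn*, which encodes the matrix protein asporin, had 589 counts in unsorted, 295 in 2N and 120 in 4N cells with CYC065, in the order that *Cbfa2t3* had. *Tbx2* had the commonest shape, with 936 genes within 1, led by *Sash1* (0.134), *Entpd2* (0.185) and *Gvin1* (0.252). *Sash1* had 64, 86 and 60 counts with CYC065 in the order unsorted, 2N and 4N. *Gvin1* shares 99.2% of its 50-mers with other genes.

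For *Gm36660* the closest were *Rdh16f1* (0.653), *Gm13398* (0.689) and *Tbx19* (0.718), and 10 genes lay within 1. All 50-mers of *Rdh16f1* occur in other genes, so its counts are uncertain. For *Gm48742* they were *Gm13283* (0.705, with 74.8% of its 50-mers shared), *Mtus2* (0.941) and *Krtap1-5* (0.949), and 3 genes lay within 1. *Krtap1-5*, a hair keratin-associated gene, had 6 counts in unsorted, 56 in 2N and 29 in 4N cells with CYC065, against 0, 1 and 3 with vehicle. *Cbfa2t3* and *Gm48742* thus had the fewest genes of like profile.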

How the data were processed

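Total RNA of ED1SQ4 cells was depleted of ribosomal RNA and made into stranded libraries. The authors trimmed the reads, aligned them with STAR to mm10, ran RSEM on GENCODE M21 and deposited its expected counts per gene, not normalized. The submitters' processing notes give bcl2fastq 2.17, Cutadapt 1.18, STAR 2.7.0f and RSEM 1.3.1, and the versions of bcl2fastq and RSEM are stated otherwise in the study. Of all genes, 9.66% had a fractional value.

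The 3 columns of each of the 6 conditions were summed and rounded to whole numbers. Column totals ran from 18246493 to 20933929 and differed by 0.0154% to 0.0681% within a condition. Columns were less alike over genes with fractional counts (chi-square per degree of freedom 4.94 to 8.85). CPM used TMM factors from edgeR 4.0.16 (R 4.3.3) over the 6 libraries. Counts have exact Poisson and ratios exact conditional binomial 95% intervals (SciPy 1.17.1). A level against 0 counts is given as a lower bound against 3 counts per library, which leaves out the counting error of the level itself. A gene entered a comparison if 1 of its libraries held 30 or more counts, and 2-fold was judged on log2 values with a prior count of 0.5. The ratios and intervals were tested on simulated Poisson counts of genes with at least 100 counts, so the low counts with vehicle were not covered. Positions and neighbours came from GENCODE M21, which held all 55450 genes, and Python 3.11.15 with pandas 2.3.3 and NumPy 2.4.6 was used.

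The 5 genes and all lists (families, partners, targets, markers) were chosen with earlier results of these data known. Named were all 5 genes, their paralogs, the most abundant genes of a list or those past 2-fold with at least 100 counts, the 3 nearest genes on each side and the 3 most alike in profile; other genes named with few counts were singled out after their values were seen. The alternatives were library size or DESeq2 1.42.0 size factors, TMM separately for sorted and unsorted libraries, other filters and prior counts, an interval wholly beyond 2-fold, other limits for the off-to-on rule, and leaving out each replicate. Some genes of the target and blood marker lists are not reported here.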

Additional observations from a re-analysis of the deposited data

How the results depend on the processing

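No paired analysis was possible because the 3 replicates of a condition were parts of 1 library and no test was made. No alternative turned the sign of a log2 ratio of the 5 genes except that of *Tmem132b* in unsorted versus 4N CYC065-treated cells, which lay near 0 and ran from -0.21 (library size alone) to 0.13 (without replicate 2). Of 180 recomputed CPM values 177, and of 170 log2 ratios 162, moved by less than their interval. The exceptions came from leaving out replicates. *Tmem132b* in vehicle 2N cells ran from 0.00 to 0.0260 CPM and in CYC065 2N cells from 3.80 to 4.86 CPM, and *Gm36660* in vehicle unsorted cells from 0.00 to 0.0258 CPM. The log2 ratio of *Tmem132b* in 4N versus 2N CYC065-treated cells ran from 0.19 to 0.64. Lower bounds fell because fewer reads stood against the same 3 counts: *Cbfa2t3* in unsorted cells had bounds of 6.05 to 6.10, and *Gm48742* had 1.12 to 1.87 in unsorted and 5.04 to 5.12 in 2N cells, on the log2 scale.

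Scaling by library size alone moved the median log2 ratio of all genes to -0.12 for CYC065 versus vehicle in unsorted and 0.11 in 4N cells, and to -0.19 and -0.23 for unsorted versus 2N and versus 4N CYC065-treated cells. *Cbfa2t3* then had 1.99 and 3.71 and *Gm48742* -3.73 and -1.60 in those last comparisons. The number of genes past 2-fold depended on the filter. Without one, it was 10267, 11607 and 10938 for CYC065 versus vehicle in unsorted, 2N and 4N cells, 7217 and 5448 for 4N versus 2N with CYC065 and vehicle, and 7905 and 7658 for unsorted versus 2N and 4N with CYC065. From at least 100 counts it was 218, 120, 438 and 737 in the last 4 comparisons, and with the interval wholly beyond 2-fold 163, 72, 353 and 584. In 4N versus 2N CYC065-treated cells, 210 genes were higher and 295 lower, against 121 and 97 from at least 100 counts. The off-to-on rule gave 3 genes with vehicle at 0 counts, 76 with up to 10 counts and 1 with at least 100 counts with CYC065. With a prior count of 2, the median of the TMEM132 family was 2.94 in 2N and 3.10 in 4N cells, against 3.44 and 3.42. Only 2 of its 5 genes passed the filter, *Tmem132a* and *Tmem132b*. This median thus rests on a gene chosen for being higher and does not describe the family. Depth limits the vehicle levels, where 0 to 13 counts set each ratio or bound.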

Other observations

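The 16 genes with at most 3 counts in each vehicle library and at least 30 in each CYC065 library were 11 protein-coding and 5 other genes. *Spdef*, an epithelial transcription factor of mucous cells, had at most 2 counts with vehicle and at least 67 with CYC065. *Slc6a2*, the noradrenaline transporter, had at most 3 and at least 42, and *Htr6*, a serotonin receptor, at most 3 and at least 33. *Hgfac*, the activator of hepatocyte growth factor, had at most 3 and at least 33, and *Car11*, a carbonic anhydrase-related gene, at most 2 and at least 44. *Sytl1*, a gene of vesicle trafficking, had at most 2 and at least 42. The retinol dehydrogenase genes *Rdh9* and *Rdh16f1* had 0 counts with vehicle and at least 60 and 40 with CYC065, but 68.3% and 100.0% of their 50-mers occur in other genes too. All of these values are per library, with 1 library a condition.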
